A study of Homo sapiens with 6 samples.

Results

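The genes described here are 9 regulators and markers of the luminal lineage of the mammary gland: the hormone receptors ESR1 and PGR, the transcription factors FOXA1, GATA3, ELF5, SPDEF and XBP1, the receptor KIT and the mucin MUC1. They are a list of names, matched to Entrez Gene IDs by symbol, which uses no measured value but was drawn up with earlier results of these data known. All 9 were found among the 18795 genes of the expression table, and 7 of them, all but ELF5 and PGR, averaged 1 FPKM or more across all 6 libraries and entered the tests, as 12454 genes did. The Entrez Gene IDs are 2099 for ESR1, 5241 for PGR, 3169 for FOXA1, 2625 for GATA3, 2001 for ELF5, 3815 for KIT, 25803 for SPDEF, 7494 for XBP1 and 4582 for MUC1. FPKM counts sequenced fragments, scaled to transcript length and to the size of the library, so that levels of different genes can be set side by side.

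RNA was sequenced from MDA-MB-468 and HCC70, a pair of established human lines of basal-like breast cancer, a tumour type that as a rule lacks hormone receptors. Cells of each line were fixed in methanol, stained for keratin 18, keratin 14 and vimentin, and sorted into cells positive for keratin 18 and keratin 14 (K18+K14+), for keratin 18 and vimentin (K18+Vim+), and for keratin 18 as the only one named (K18+). The line was MDA-MB-468, grown in Leibovitz L15 medium, or HCC70, grown in RPMI, both with serum and neither with a treatment, so that line and medium cannot be told apart. Each population gave 1 library per line (n = 2 per population), and each line stands for 1 tumour. A gene's own spread is therefore how far the lines disagree about a population difference, or the populations about a line difference. It is not the spread between cultures. The p-values, from limma, do not rest on a gene's own spread alone. They combine it with a spread estimated from all tested genes, following their level. In the main fits that shared spread had more weight than the gene's own.

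One library went against its label. MDA-MB-468 is known for the loss of SMAD4 and RB1 and for amplified EGFR. SMAD4 was at 5.19 FPKM in the K18+Vim+ library labelled MDA-MB-468, against 0.310 and 0.566 FPKM in the K18+K14+ and K18+ libraries of that line. RB1 was at 6.68 FPKM there, against 0.269 and 0.307 FPKM, and EGFR at 10.4 FPKM, against 70.7 and 153 FPKM. Pearson's r between log2(FPKM + 1) values of the tested genes was 0.791 and 0.828 between that library and the other MDA-MB-468 libraries, which had 0.919 with each other, 0.743 to 0.746 between it and the HCC70 libraries, and 0.967 to 0.978 among the HCC70 libraries. Over all tested genes it was thus nearer to the line on its label than to HCC70. With the HCC70 libraries, however, MDA-MB-468 K18+ cells had r of 0.829 to 0.838 and K18+K14+ cells 0.764 to 0.790. The 2 other MDA-MB-468 libraries were thus about as near to HCC70 as to that library. The lines were therefore compared over the 4 K18+K14+ and K18+ libraries. Fitted differences of the members that rest on the K18+Vim+ library labelled MDA-MB-468 are given with and without it. Wherever values of K18+Vim+ cells stand under MDA-MB-468, they are those of that library as labelled. Of the luminal markers KRT8, KRT18, KRT19, EPCAM and CD24, the sum was 3028, 193 and 2081 FPKM in MDA-MB-468 libraries of K18+K14+, K18+Vim+ and K18+ cells and 1194 to 1459 FPKM in the HCC70 libraries, and CD24 was listed at 0.1 FPKM, the lowest value of the whole table, in all 6. As 2096 genes were listed there in all 6, and whether CD24 was covered by the counting is not known here, the sum rests on the other 4. KRT14 was highest in the K18+K14+ library of each line and VIM in the K18+Vim+ library. Markers of fibroblasts summed to 4.09 to 9.82 FPKM, of T, B and myeloid cells to 2.13 to 8.38 FPKM and of endothelium to 0.500 to 1.57 FPKM.

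The luminal layer of the mammary gland holds hormone-sensing cells, which express the oestrogen receptor ESR1, and alveolar progenitors, which respond to them through paracrine signals and make milk in pregnancy. FOXA1 opens chromatin at the sites that ESR1 binds, and GATA3 acts beside it and is needed to keep cells luminal. KIT and ELF5 mark the progenitor and alveolar branch, from which basal-like tumours are widely thought to arise. SPDEF and XBP1 serve secretion, and MUC1 is the mucin of the luminal cell surface.

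Promoter sequences of SPDEF, KIT and FOXA1 are shown because these are the members whose levels passed the test between the lines, and their base composition differs. Each runs 5′ to 3′ on the strand of the gene, from 250 bases before to 50 bases after the start, with CG dinucleotides in capitals, from RefSeq on GRCh38.p14, another build than the GRCh37 of the data. SPDEF lies on the minus strand of chr6:34556280-34556579, KIT on the plus strand of chr4:54657707-54658006 and FOXA1 on the minus strand of chr14:37595200-37595499.
SPDEF: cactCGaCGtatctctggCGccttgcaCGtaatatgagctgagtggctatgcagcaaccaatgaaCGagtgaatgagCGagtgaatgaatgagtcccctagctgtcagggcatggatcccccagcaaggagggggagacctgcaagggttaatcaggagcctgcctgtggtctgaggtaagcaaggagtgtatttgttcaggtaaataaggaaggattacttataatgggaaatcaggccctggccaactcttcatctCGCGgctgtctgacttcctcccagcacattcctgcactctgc
KIT: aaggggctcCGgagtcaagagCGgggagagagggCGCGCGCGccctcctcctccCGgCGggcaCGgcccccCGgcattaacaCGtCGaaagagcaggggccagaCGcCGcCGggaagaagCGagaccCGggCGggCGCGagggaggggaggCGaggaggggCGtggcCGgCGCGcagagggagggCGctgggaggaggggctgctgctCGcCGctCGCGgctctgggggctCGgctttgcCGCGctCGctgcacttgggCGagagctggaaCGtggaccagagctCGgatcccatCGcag
FOXA1: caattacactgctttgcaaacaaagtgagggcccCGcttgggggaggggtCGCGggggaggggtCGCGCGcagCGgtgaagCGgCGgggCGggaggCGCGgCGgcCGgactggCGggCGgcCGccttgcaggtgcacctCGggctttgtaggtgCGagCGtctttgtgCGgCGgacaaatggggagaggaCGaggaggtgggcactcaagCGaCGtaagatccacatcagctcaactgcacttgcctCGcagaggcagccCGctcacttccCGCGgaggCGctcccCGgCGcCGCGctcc

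The SPDEF window had 8 CG dinucleotides and 52.0% G or C, and 41.6% of the 35116 promoter windows of the table had as few. The KIT window had 38 CG dinucleotides and 74.3% G or C, a CG count reached by 9.91% of windows. The FOXA1 window had 34 CG dinucleotides and 69.3% G or C, a CG count reached by 15.6% of windows. The median window had 14 CG dinucleotides and 58.7% G or C. SPDEF thus had fewer CG than the median window, and KIT and FOXA1 had more. A link between CG count and the line differences was not tested. Both strands were searched for 4 short motifs of the factors among these genes. AGATAA, for GATA factors, occurs in 10.3% of all windows. TGTTTAC, for FOXA factors, occurs in 3.42%. A single arm of the site of oestrogen receptors, GGTCA, occurs in 37.4%. For XBP1 the core ACGTG occurs in 21.4%, and it was found at -170 and 21 from the KIT start and at -225 from the SPDEF start, with no overlap. None of the other 3 motifs was found in these windows, and none of the 4 in that of FOXA1. A match is a run of letters and not a site of binding.

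MUC1 was the most abundant of the 9 genes, and XBP1 varied least among the 7 that entered the tests. The mean over the 6 libraries was 829 FPKM for MUC1, 105 FPKM for XBP1, 20.7 FPKM for SPDEF, 17.4 FPKM for GATA3, 8.99 FPKM for FOXA1, 2.17 FPKM for KIT, 1.07 FPKM for ESR1, 0.332 FPKM for ELF5 and 0.103 FPKM for PGR. The SD of log2(FPKM + 1) over the 6 libraries was 0.29 for XBP1, between 0.79 and 1.04 for ESR1, GATA3, FOXA1 and KIT, 2.08 for MUC1 and 2.43 for SPDEF, and it was 0.0085 for PGR and 0.30 for ELF5, which did not enter the tests. The mean of SPDEF stands far above its median of 1.87 FPKM, because 2 libraries carry it. Neighbours in this order had overlapping ranges, except that the lowest XBP1 value, 74.2 FPKM, was above the highest SPDEF value, 69.6 FPKM. MUC1 and XBP1 overlapped only through the MUC1 value of the K18+Vim+ library labelled MDA-MB-468.

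**Figure D1:**
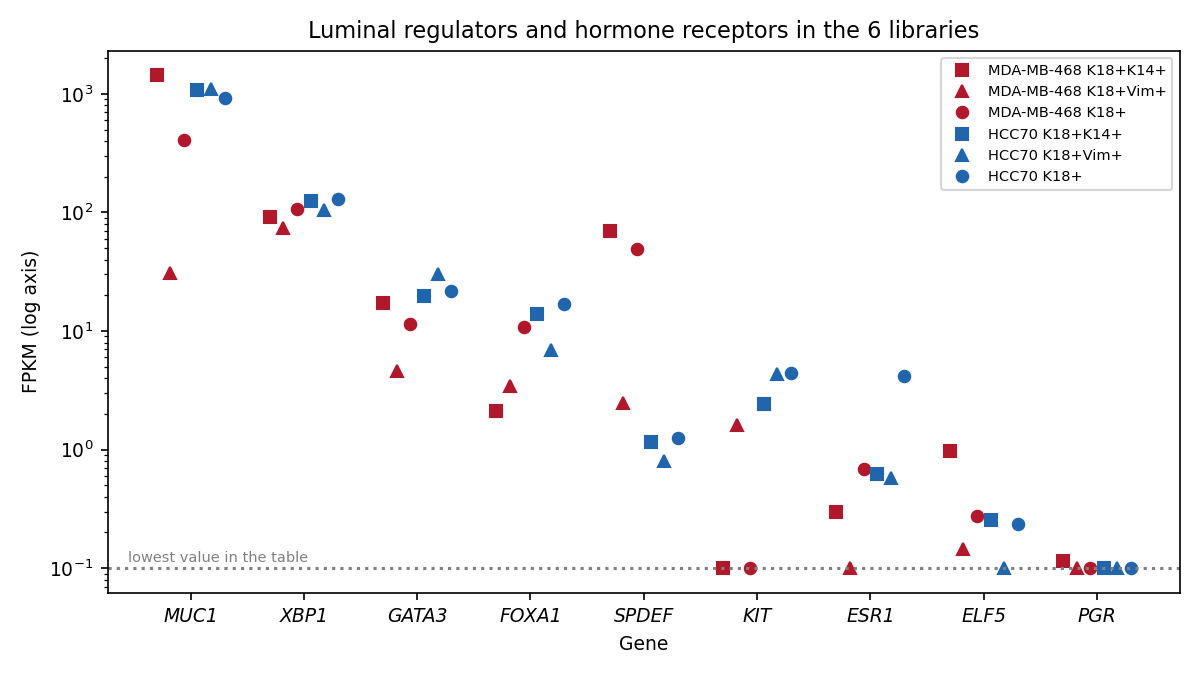
Level of each gene in FPKM (vertical log axis) in the 6 libraries, ordered by level with MDA-MB-468 in red and HCC70 in blue; squares are K18+K14+, triangles K18+Vim+ and circles K18+ libraries, and the dotted line is the lowest value of 0.1 FPKM. SPDEF splits by line apart from the red triangle, KIT sits at the lowest value in 2 MDA-MB-468 libraries, and PGR lies on or beside it in all 6.

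The hormone receptors were low or at the lowest listed value. PGR, the progesterone receptor and a classical target of ESR1, was at 0.116 FPKM in MDA-MB-468 K18+K14+ cells and at 0.1 FPKM in the other 5 libraries. ESR1 was at 0.295, 0.1 and 0.691 FPKM in the libraries labelled MDA-MB-468 of K18+K14+, K18+Vim+ and K18+ cells, against 0.624, 0.572 and 4.15 FPKM in HCC70 cells of the same populations. The HCC70 K18+ library thus stood far above the next highest one, MDA-MB-468 K18+, and it alone carried ESR1 over the limit of the tests. ELF5, the factor that drives the alveolar programme, was at 0.976, 0.145 and 0.277 FPKM in the MDA-MB-468 libraries in the same order, against 0.255, 0.1 and 0.237 FPKM in HCC70. It was highest in MDA-MB-468 K18+K14+ cells and stayed under 1 FPKM in all 6. Read counts are not given with these values, so a gene at 0.1 FPKM is only listed there.

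Between the lines, SPDEF was far higher in MDA-MB-468, and KIT and FOXA1 were lower. SPDEF, an ETS factor of secretory epithelium, was at 69.6 and 48.8 FPKM in MDA-MB-468 K18+K14+ and K18+ cells, against 1.15 and 1.25 FPKM in HCC70 cells, a difference of 4.75 ± 0.35 log2 units (SE, 95% interval 3.96 to 5.54, limma adjusted p = 7.41e-05). It was 60.3-fold higher within the K18+K14+ population and 38.9-fold higher within K18+, and the lines did not overlap. KIT, the receptor for stem cell factor, was listed at 0.1 FPKM in both of these MDA-MB-468 libraries, against 2.42 and 4.41 FPKM in HCC70 (-1.97 ± 0.32, interval -2.70 to -1.23, adjusted p = 0.00343). As MDA-MB-468 lies at the lowest value, that difference depends on the constant of 1 FPKM and is no fold. As KIT entered the tests only through HCC70, the line where it is high, its p-value carries no weight. FOXA1 was at 2.14 and 10.8 FPKM in MDA-MB-468, against 13.8 and 17.0 FPKM in HCC70 (-1.42 ± 0.43, interval -2.41 to -0.44, adjusted p = 0.0402).

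SPDEF was among the 11.5% of tested genes that passed as higher and KIT and FOXA1 among the 15.5% that passed as lower, 27.0% in all. With quantile normalization these shares were 14.3% and 14.8%. KIT reached the limit of the tests only through the HCC70 libraries, so that the count of members that passed carries no weight of its own. In line fits with 1 library left out, the population term was dropped too. Such values therefore mix the missing library with the change of model and with unequal populations. Leaving out HCC70 K18+ took SPDEF to 4.78 with adjusted p = 0.0509 and KIT to -1.64 with adjusted p = 0.0848, leaving out MDA-MB-468 K18+K14+ took KIT to adjusted p = 0.0547, and with no filter on low values no gene passed. The FOXA1 difference was -0.47 with adjusted p = 0.368 without MDA-MB-468 K18+K14+, and adjusted p was 0.635 without HCC70 K18+, 0.519 without HCC70 K18+K14+ and 0.0940 with all 6 libraries.

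The other members did not pass between the lines. GATA3 was at 17.1 and 11.4 FPKM in MDA-MB-468 K18+K14+ and K18+ cells, against 19.6 and 21.6 FPKM in HCC70, -0.53 ± 0.35 log2 units with an interval of -1.32 to 0.26 (limma adjusted p = 0.287). XBP1, the factor of the IRE1 arm of the unfolded protein response, was at 91.1 and 106 FPKM in MDA-MB-468, against 124 and 129 FPKM in HCC70, -0.36 ± 0.38 with an interval of -1.22 to 0.51 (adjusted p = 0.517). Both genes were lower in MDA-MB-468 without overlap, as KIT and FOXA1 were, which 32.2% of tested genes were, while 30.4% were higher without overlap as SPDEF was. ESR1 differed by -0.97 ± 0.37 (interval -1.81 to -0.13, adjusted p = 0.0832), and its libraries overlapped. That value was -0.13 without HCC70 K18+ and -1.80 without HCC70 K18+K14+. MUC1 was at 1431 and 412 FPKM in MDA-MB-468, which enclosed the 1076 and 914 FPKM of HCC70, a difference of -0.37 ± 0.65 (interval -1.84 to 1.10, adjusted p = 0.703). With quantile normalization the MUC1 difference was -1.13 with adjusted p = 0.0436.

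In the K18+Vim+ population SPDEF was at 2.49 FPKM under the label MDA-MB-468 and at 0.805 FPKM in HCC70, a 3.09-fold difference that, given the conflict with that label, is not read as one between the lines. KIT was at 1.60 FPKM in the K18+Vim+ library labelled MDA-MB-468 and at 4.38 FPKM in HCC70 K18+Vim+. Of the libraries labelled MDA-MB-468 that one alone held KIT above the lowest value, and it is the one whose SMAD4, RB1 and EGFR went against its line. With all 6 libraries in the fit SPDEF differed by 3.48 (adjusted p = 0.0374) and KIT by -1.66 (adjusted p = 0.0428). KIT is also a marker of mast cells. The mast cell genes TPSAB1, CPA3 and HDC were at 0.1 FPKM in every library. The 6 mast and blood progenitor markers summed to 0.817, 6.39 and 1.52 FPKM in MDA-MB-468 libraries of K18+K14+, K18+Vim+ and K18+ cells, against 8.03, 18.7 and 13.8 FPKM in HCC70. In HCC70 nearly all of that was GATA2, a factor also known from epithelium, which was at 0.1, 5.89 and 1.02 FPKM in MDA-MB-468, against 7.53, 18.2 and 13.3 FPKM in HCC70.

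**Figure D2:**
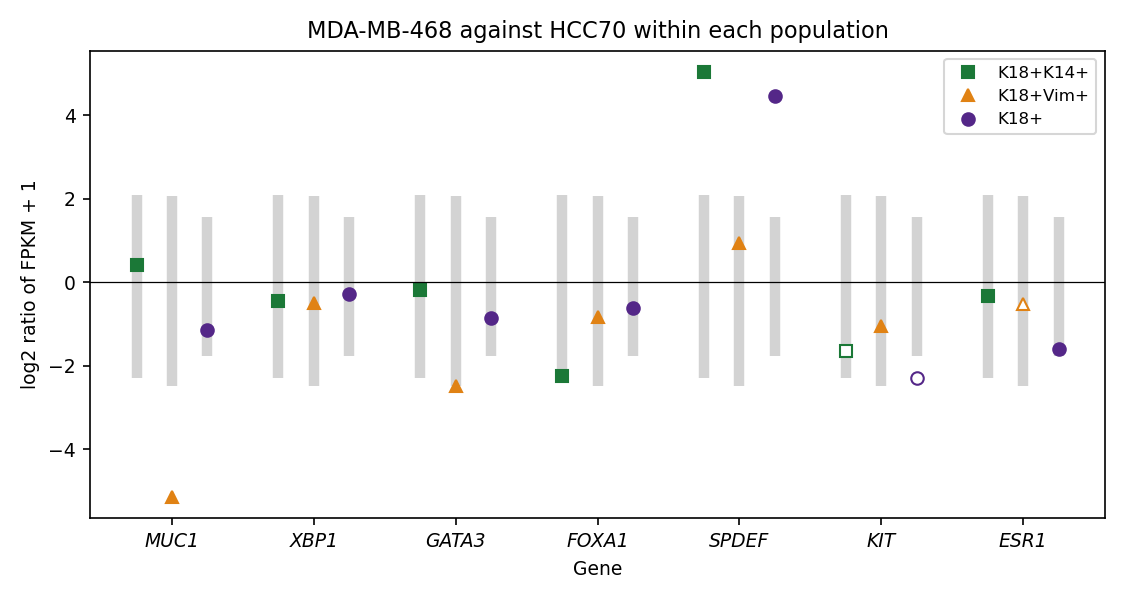
Log2 ratio of FPKM + 1, MDA-MB-468 against HCC70, for the 7 tested genes within the K18+K14+ (green squares), K18+Vim+ (orange triangles) and K18+ (purple circles) populations; grey bars span the 5th to 95th percentile of all tested genes, and open symbols have a value at the lowest of the table. SPDEF lies at 5.03 and 4.47 in K18+K14+ and K18+, above the grey bars, and at 0.95 in K18+Vim+.

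The K18+K14+ cells were compared with K18+ cells to ask whether luminal genes differ where the basal keratin 14 is present. No member passed, and neither did any of the 12454 genes (0.0%, smallest limma adjusted p = 0.855, 428 genes at an unadjusted p under 0.05). That fit took its spread from all 6 libraries, the K18+Vim+ library labelled MDA-MB-468 among them. With only the 4 libraries compared, the differences were the same and again no gene passed. There 1599 genes had an unadjusted p under 0.05, and limma adjusted p was 0.388 for FOXA1 and for ESR1. KRT14 itself was at 279 FPKM in K18+K14+ cells of MDA-MB-468 and 48.6 FPKM in those of HCC70, against 47.8 and 15.3 FPKM in K18+ cells, so that the sort was visible in its own antigen although that gene did not pass either.

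FOXA1 was at 2.14 FPKM in K18+K14+ cells of MDA-MB-468 and 13.8 FPKM in those of HCC70, against 10.8 and 17.0 FPKM in K18+ cells. The fitted difference was -1.09 ± 0.50 log2 units (SE, n = 2 lines, interval -2.30 to 0.11, limma adjusted p = 0.855), and the ratio in MDA-MB-468, -1.91, had 2.06% of tested genes at or below it. In HCC70 the ratio was -0.28, near the median of all genes of -0.15. ESR1 had the reverse split, with 0.295 FPKM in MDA-MB-468 and 0.624 FPKM in HCC70 K18+K14+ cells, against 0.691 and 4.15 FPKM in K18+ cells. The MDA-MB-468 ratio was -0.38 and the HCC70 ratio -1.66 (fitted -1.02 ± 0.51, interval -2.26 to 0.21, adjusted p = 0.855, and -0.43 without HCC70 K18+). As the HCC70 K18+ library alone took ESR1 into the tests and is the one divided by, its place among all tested genes is not given. Both genes thus had lower values in both lines, but the size came from MDA-MB-468 for FOXA1 and from HCC70 for ESR1. In bulk RNA, fewer cells that express a gene and less of its RNA per cell cannot be told apart.

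MUC1 went the other way, at 1431 FPKM in K18+K14+ cells of MDA-MB-468 and 1076 FPKM in those of HCC70, against 412 and 914 FPKM in K18+ cells. That is 3.48-fold and 1.18-fold higher, and 1.25% of tested genes had a ratio at or above the one in MDA-MB-468 (fitted 1.01 ± 1.21, interval -1.88 to 3.91, adjusted p = 0.885). MUC1 encodes a stretch of tandem repeats, where short reads are hard to place. XBP1 was at 91.1 and 124 FPKM in MDA-MB-468 and HCC70 K18+K14+ cells, against 106 and 129 FPKM in K18+ cells, and its fitted difference of -0.14 ± 0.40 was close to the median of all genes, -0.16.

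GATA3 was at 17.1 FPKM in K18+K14+ cells of MDA-MB-468 and 19.6 FPKM in those of HCC70, against 11.4 and 21.6 FPKM in K18+ cells (0.21 ± 0.59, interval -1.21 to 1.62, adjusted p = 0.955). SPDEF was at 69.6 and 1.15 FPKM, against 48.8 and 1.25 FPKM (0.22 ± 0.94, adjusted p = 0.975). For both the ratio was above 0 in MDA-MB-468 and below 0 in HCC70, and after quantile normalization it was above 0 in HCC70 too, at 0.02 for GATA3 and 0.10 for SPDEF. KIT was at 0.1 FPKM in both MDA-MB-468 libraries and at 2.42 FPKM in HCC70 K18+K14+ cells, against 4.41 FPKM in HCC70 K18+ cells. FOXA1, ESR1 and XBP1 had lower values in both lines, as 43.7% of tested genes did, and MUC1 had higher ones in both, as 20.2% did. After quantile normalization, which moved the median of all genes by 0.17, these shares were 30.7% and 31.3% and the 4 genes kept their directions. As the HCC70 K18+ library alone took ESR1 into the tests, the sign of ESR1 in HCC70 carries no weight beside these shares.

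The same question was asked of K18+Vim+ cells, which carry the mesenchymal filament protein vimentin, set against K18+ cells. Again no member passed and no gene did (0.0%, smallest limma adjusted p = 0.863, 532 genes at an unadjusted p under 0.05). FOXA1 was at 3.41 FPKM in the K18+Vim+ library labelled MDA-MB-468 and 6.88 FPKM in HCC70 K18+Vim+ cells, against 10.8 and 17.0 FPKM in K18+ cells. It was 3.16-fold lower in the libraries labelled MDA-MB-468 and 2.46-fold lower in HCC70, a fitted -1.30 ± 0.50 log2 units (interval -2.51 to -0.10, unadjusted p = 0.0377, adjusted p = 0.863). In HCC70, where the K18+Vim+ library had r of 0.967 or more with the other libraries of its line, 1.70% of tested genes had a ratio at or below that of FOXA1.

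ESR1 was at 0.1 FPKM in the K18+Vim+ library labelled MDA-MB-468 and 0.572 FPKM in HCC70 K18+Vim+ cells, against 0.691 and 4.15 FPKM in K18+ cells (-1.17 ± 0.51, interval -2.40 to 0.07, adjusted p = 0.863). Its HCC70 ratio was -1.71, and without HCC70 K18+ the fitted difference was -0.57. The HCC70 K18+Vim+ and K18+K14+ libraries thus had nearly the same ESR1 level, 0.572 and 0.624 FPKM, and both comparisons share the 1 HCC70 K18+ library that stood apart. XBP1 was at 74.2 FPKM in the K18+Vim+ library labelled MDA-MB-468 and 105 FPKM in HCC70 K18+Vim+ cells, against 106 and 129 FPKM in K18+ cells (-0.40 ± 0.40, interval -1.36 to 0.55, adjusted p = 0.903). Without the K18+Vim+ library labelled MDA-MB-468 its fitted difference was -0.33.

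SPDEF and MUC1 had wide gaps between the libraries labelled MDA-MB-468 and little difference in HCC70. SPDEF was at 2.49 FPKM in the K18+Vim+ library labelled MDA-MB-468 and 0.805 FPKM in HCC70 K18+Vim+ cells, against 48.8 and 1.25 FPKM in K18+ cells (-2.08 ± 0.94, interval -4.34 to 0.18, adjusted p = 0.863). MUC1 was at 30.6 and 1108 FPKM, against 412 and 914 FPKM in K18+ cells (-1.71 ± 1.21, interval -4.61 to 1.18, adjusted p = 0.863). The level in the K18+Vim+ library labelled MDA-MB-468 was 19.6-fold lower for SPDEF and 13.4-fold lower for MUC1 than in K18+ cells of that line, beside a sum of luminal markers of 193 FPKM against 2081 FPKM, and the part of the library's conflict with its label in these gaps was not tested. MUC1 lay at percentiles of 99.1 to 99.8 of its library in the other 5 and at 84.8 there. Without that library the fitted differences were -0.18 for SPDEF and 0.67 for MUC1. Without HCC70 K18+Vim+, when it alone stood for the population and was taken to vary like the other groups, they were -3.98 (adjusted p = 0.00241) and -4.10 (adjusted p = 0.00882), and 1500 genes passed.

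GATA3 was at 4.59 FPKM in the K18+Vim+ library labelled MDA-MB-468 and 30.3 FPKM in HCC70 K18+Vim+ cells, the lowest and the highest of its 6 values, against 11.4 and 21.6 FPKM in K18+ cells. The fitted difference was -0.34 ± 0.59 (interval -1.75 to 1.07, adjusted p = 0.955), and 0.64 without the K18+Vim+ library labelled MDA-MB-468. KIT was at 1.60 and 4.38 FPKM, against 0.1 and 4.41 FPKM in K18+ cells (0.62 ± 0.48, adjusted p = 0.870), and its difference without that library was 0.16. FOXA1, ESR1, SPDEF and XBP1 had lower values in both lines, as 33.9% of tested genes did, and no member had higher ones in both, as 16.5% did. After quantile normalization, which moved the median by 0.14, the shares were 24.3% and 26.6%, the 4 genes kept their directions, and KIT had higher values in both lines. Here too the sign of ESR1 in HCC70 carries no weight, as the HCC70 K18+ library alone took ESR1 into the tests. FOXA1 and ESR1 differed by -1.60 and -1.39 without the K18+Vim+ library labelled MDA-MB-468, with adjusted p = 0.894 for each.

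**Figure D3:**
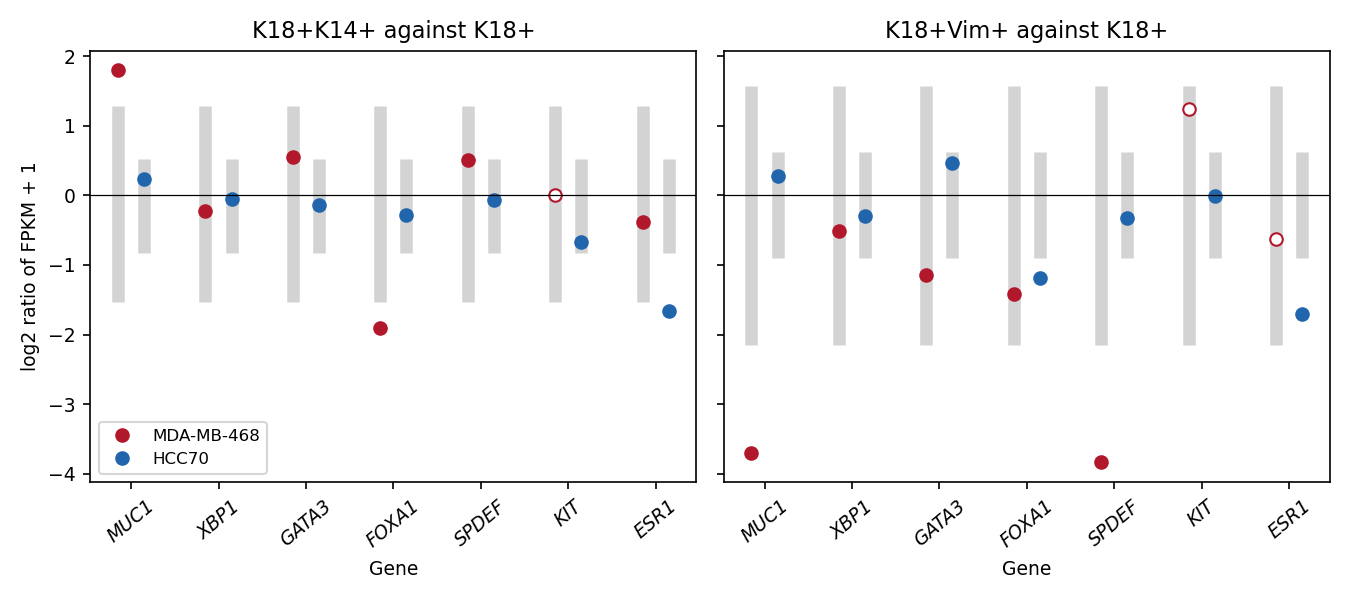
Log2 ratio of FPKM + 1 of the 7 tested genes in MDA-MB-468 (red) and HCC70 (blue), for K18+K14+ against K18+ cells on the left and K18+Vim+ against K18+ cells on the right; grey bars span the 5th to 95th percentile of all tested genes in that line, and open symbols have a value at the lowest of the table. FOXA1 lies below its bar in MDA-MB-468 on the left and in HCC70 on the right. MUC1 and SPDEF lie at -3.71 and -3.84 on the right in MDA-MB-468 as labelled. The place of ESR1 against its bar in HCC70 carries no weight, because the HCC70 K18+ library alone took it into the tests.

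Genes that work with the members were followed in 7 lists, where counts for K18+Vim+ cells rest in part on the K18+Vim+ library labelled MDA-MB-468 and the HCC70 medians do not. Counts in each list stand beside the share of all tested genes with the same call or sign. Of the hormone-sensing genes and targets of ESR1, 15 of 24 were abundant enough to test. TFF1, TFF3 and ANKRD30A, textbook markers of oestrogen-responsive breast cells, were at 0.1 FPKM in all 6 libraries. Between the lines 3 were higher and 4 lower in MDA-MB-468, beside 11.5% and 15.5% of all tested genes. AGR2, a disulfide isomerase of mucin-secreting cells, was at 44.9 and 36.6 FPKM in MDA-MB-468 K18+K14+ and K18+ cells, against 191 and 357 FPKM in HCC70 (-2.66 ± 0.43, limma adjusted p = 0.00308). Its paralogue AGR3 was at 0.1 FPKM in both, against 6.38 and 19.2 FPKM (adjusted p = 0.000692). The transcription factor MYB was higher in MDA-MB-468 by 1.47 ± 0.33 (adjusted p = 0.0125), and the scaffold protein PDZK1 by 2.15 ± 0.33 (adjusted p = 0.00255). AGR3 averaged under 1 FPKM in MDA-MB-468 and PDZK1 in HCC70 over the 4 libraries compared, so that each entered the tests through the line where it is high. Neither gene therefore carries weight in these counts, nor does its p-value. In K18+K14+ against K18+ cells 2 were higher and 7 lower in both lines, beside 20.2% and 43.7%, and in K18+Vim+ against K18+ cells 2 and 4, beside 16.5% and 33.9%, with none past the test. After quantile normalization the first counts were 4 and 4, beside 31.3% and 30.7% of all tested genes. The transcriptional coactivator CITED1 was among those higher in both comparisons, at 5.67 FPKM in K18+K14+ cells and 72.3 FPKM in K18+Vim+ cells as labelled, against 2.27 FPKM in K18+ cells of MDA-MB-468, and at 1.88 and 2.80 FPKM, against 0.662 FPKM, in HCC70.

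Cofactors and partners of ESR1, GATA3 and FOXA1 were all 22 tested. Between the lines 3 were higher and 2 lower in MDA-MB-468, beside 11.5% and 15.5% of all tested genes. TLE3, a corepressor that FOXA1 is known to bind, was at 186 and 344 FPKM in MDA-MB-468 K18+K14+ and K18+ cells, against 15.2 and 19.9 FPKM in HCC70 (3.79 ± 0.37, limma adjusted p = 0.000277). The LIM-only protein LMO4 was also higher (1.28 ± 0.37, adjusted p = 0.0350), while the dioxin receptor AHR (-1.30 ± 0.33, adjusted p = 0.0224) and the coactivator NCOA2 (-1.14 ± 0.33, adjusted p = 0.0327) were lower. K18+K14+ cells had lower values than K18+ cells in both lines for 16 of the 22 and higher ones for 2, beside 43.7% and 20.2% of all tested genes, with a median ratio of -0.74 in MDA-MB-468 and -0.33 in HCC70 beside -0.17 and -0.15 for all genes. Set against K18+ cells, K18+Vim+ cells had lower values for 14 and higher ones for 2, beside 33.9% and 16.5%, with medians of -1.08 and -0.27 beside -0.04 and -0.16. None passed, and after quantile normalization 13 had lower and 3 higher values in each comparison. The shares of all tested genes were then 30.7% and 31.3% for K18+K14+ cells and 24.3% and 26.6% for K18+Vim+ cells. Among those with lower values in both comparisons, the zinc finger protein ZNF217 was at 1.25 and 1.87 FPKM in the K18+K14+ and K18+Vim+ libraries labelled MDA-MB-468, against 8.93 FPKM in K18+ cells, and at 7.03 and 5.87 FPKM, against 11.7 FPKM, in HCC70. NRIP1, a corepressor and target of ESR1, was at 0.818 and 1.47 FPKM, against 5.93 FPKM, and at 0.784 and 1.01 FPKM, against 1.99 FPKM.

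Luminal progenitor and alveolar genes were tested for 20 of 25, and the milk protein genes CSN2 and CSN3 were at 0.1 FPKM in all libraries. Between the lines 4 were higher and 5 lower in MDA-MB-468, beside 11.5% and 15.5% of all tested genes, among them the aldehyde dehydrogenase ALDH1A3 (57.5 and 57.6 FPKM in K18+K14+ and K18+ cells, against 6.39 and 9.95 FPKM in HCC70, limma adjusted p = 0.00109), KRT15 (2.36 ± 0.38, adjusted p = 0.00332) and, lower, TNFRSF11A, the receptor for RANK ligand (-1.71 ± 0.33, adjusted p = 0.00726). Another of those lower, LTF, entered the tests through HCC70 alone and carries no weight in the count. K18+Vim+ cells had lower values than K18+ cells in both lines for 16 of the 20 and higher ones for none, beside 33.9% and 16.5% of all tested genes, and none passed. The medians were -2.39 in MDA-MB-468 as labelled and -0.59 in HCC70, beside -0.04 and -0.16 for all genes. After quantile normalization 14 had lower and 0 higher values in both lines, beside 24.3% and 26.6%. The medians were then -2.34 and -0.39. ALDH1A1 was at 1.50 FPKM in the K18+Vim+ library labelled MDA-MB-468 and 2.42 FPKM in HCC70 K18+Vim+ cells, against 19.6 and 21.2 FPKM in K18+ cells (-2.87 ± 0.37, adjusted p = 0.863). KITLG, the ligand of KIT, was at 1.28 and 1.16 FPKM in the K18+K14+ and K18+Vim+ libraries labelled MDA-MB-468, against 6.77 FPKM in K18+ cells, and at 1.74 and 1.88 FPKM, against 4.40 FPKM, in HCC70. The ligand was thus measured in MDA-MB-468 K18+ cells, where the receptor was listed at the lowest value. K18+K14+ cells had higher values than K18+ cells for 6 and lower ones for 7 in both lines, beside 20.2% and 43.7%. After quantile normalization these counts were 7 and 4, beside 31.3% and 30.7%.

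Simple keratins and luminal surface genes, 15 of 16 tested, had higher values in both lines for 10 and lower ones for 3 in K18+K14+ against K18+ cells, beside 20.2% and 43.7% of all tested genes, with medians of 0.32 in MDA-MB-468 and 0.15 in HCC70. After quantile normalization the counts were 5 and 2, beside 31.3% and 30.7%. The medians were then -0.17 and 0.17, so that the direction in MDA-MB-468 turned. KRT7 was at 2675 and 2103 FPKM in MDA-MB-468 and HCC70 K18+K14+ cells, against 1523 and 1240 FPKM in K18+ cells. K18+Vim+ cells had lower values than K18+ cells for 8 in both lines and higher ones for none, beside 33.9% and 16.5%, with medians of -3.56 and -0.17, beside -0.04 and -0.16 for all genes. The HCC70 median was thus close to that of all genes, and it was -0.003 after quantile normalization. EPCAM was at 8.41 FPKM in the K18+Vim+ library labelled MDA-MB-468 and 41.7 FPKM in that of HCC70, against 115 and 69.3 FPKM. Between the lines KRT8 (1.71 ± 0.46, limma adjusted p = 0.0263) and KRT18 (1.62 ± 0.45, adjusted p = 0.0308) were higher in MDA-MB-468, and 3 genes were lower, beside 11.5% and 15.5% of all tested genes, among them E-cadherin, CDH1 (-1.71 ± 0.33, adjusted p = 0.00723), and the splicing regulator ESRP1 (-1.57 ± 0.36, adjusted p = 0.0135).

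Of 20 genes of the IRE1 arm and targets of XBP1, all tested, 1 was higher and 2 were lower in MDA-MB-468 than in HCC70, beside 11.5% and 15.5% of all tested genes. SSR1, of the translocon, was higher (1.25 ± 0.35, limma adjusted p = 0.0296), and SEL1L, of endoplasmic reticulum associated degradation, was lower (-1.23 ± 0.33, adjusted p = 0.0267), as was the coat protein SEC24D (-1.85 ± 0.43, adjusted p = 0.0142). Against K18+ cells, K18+K14+ cells had lower values for 11 in both lines and a higher one for 1, beside 43.7% and 20.2%, with medians of -0.26 and -0.22 in MDA-MB-468 and HCC70. Against K18+ cells, K18+Vim+ cells had lower values for 5 and higher ones for 2, beside 33.9% and 16.5%, with medians of 0.27 and -0.25. SSR1 was at 35.9 FPKM in the K18+Vim+ library labelled MDA-MB-468 and 15.2 FPKM in that of HCC70, against 73.8 and 33.9 FPKM in K18+ cells. None passed in either comparison of populations. After quantile normalization 12 had lower and 3 higher values in K18+K14+ cells, beside 30.7% and 31.3% of all tested genes. In K18+Vim+ cells 4 had lower and 4 higher values, beside 24.3% and 26.6%.

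Of 15 other mucins listed, 14 were in the table and 5 were tested. All 5 passed between the lines, 2 higher and 3 lower in MDA-MB-468, beside 11.5% and 15.5% of all tested genes. MUC4 reached the limit of the tests through HCC70 alone and MUC5B and MUC15 through MDA-MB-468 alone. The count therefore carries no weight, nor do the p-values of these genes. The membrane mucins MUC4, MUC16 and MUC20 were lower. MUC16 was at 2.68 and 1.52 FPKM in MDA-MB-468 K18+K14+ and K18+ cells, against 14.5 and 28.0 FPKM in HCC70 (-2.80 ± 0.41, limma adjusted p = 0.00216), and MUC20 at 3.26 and 5.19 FPKM, against 33.4 and 33.7 FPKM (-2.75 ± 0.34, adjusted p = 0.00100). MUC4 differed by -2.48 ± 0.34 (adjusted p = 0.00141). The secreted mucin MUC5B was at 2.94 and 16.1 FPKM in MDA-MB-468, against 0.211 and 0.1 FPKM in HCC70 (adjusted p = 0.00446). MUC1, far more abundant than these in both lines, did not pass. Between populations 3 had lower values in both lines in K18+K14+ and 2 in K18+Vim+ cells than in K18+ cells, beside 43.7% and 33.9%, and none passed.

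Of 20 genes of the basal layer, 17 were tested, with 8 higher and 4 lower in MDA-MB-468 than in HCC70, beside 11.5% and 15.5% of all tested genes. SNAI2 entered the tests through HCC70 and CNN1 through MDA-MB-468, the line where each is high. Neither gene therefore carries weight in these counts, nor does its p-value. KRT17 was at 677 and 219 FPKM in MDA-MB-468 K18+K14+ and K18+ cells, against 92.7 and 38.0 FPKM in HCC70 (2.68 ± 0.40, limma adjusted p = 0.00239). The repressor SNAI2 was at 0.1 FPKM in both, against 9.23 and 13.5 FPKM (adjusted p = 0.000267), and the laminin chain LAMA3 at 1.01 and 4.25 FPKM, against 62.6 and 81.0 FPKM (-4.47 ± 0.37, adjusted p = 0.000124). In K18+K14+ against K18+ cells 6 had higher and 5 lower values in both lines, beside 20.2% and 43.7% of all tested genes. In K18+Vim+ against K18+ cells 1 had higher and 8 lower values, beside 16.5% and 33.9%, with none past the test in either. After quantile normalization the K18+Vim+ counts were 1 and 5, beside 26.6% and 24.3%. The list holds the sort antigens KRT14 and VIM, so that the sort set these counts in part. KRT14 was among those higher in K18+K14+ cells and lower in K18+Vim+ cells, and VIM was the 1 higher in K18+Vim+ cells. The K18+Vim+ medians were -1.81 in MDA-MB-468 as labelled and -0.15 in HCC70, beside -0.04 and -0.16 for all genes. Keratins of the luminal and of the basal layer were thus both among the genes higher in MDA-MB-468.

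**Figure D4:**
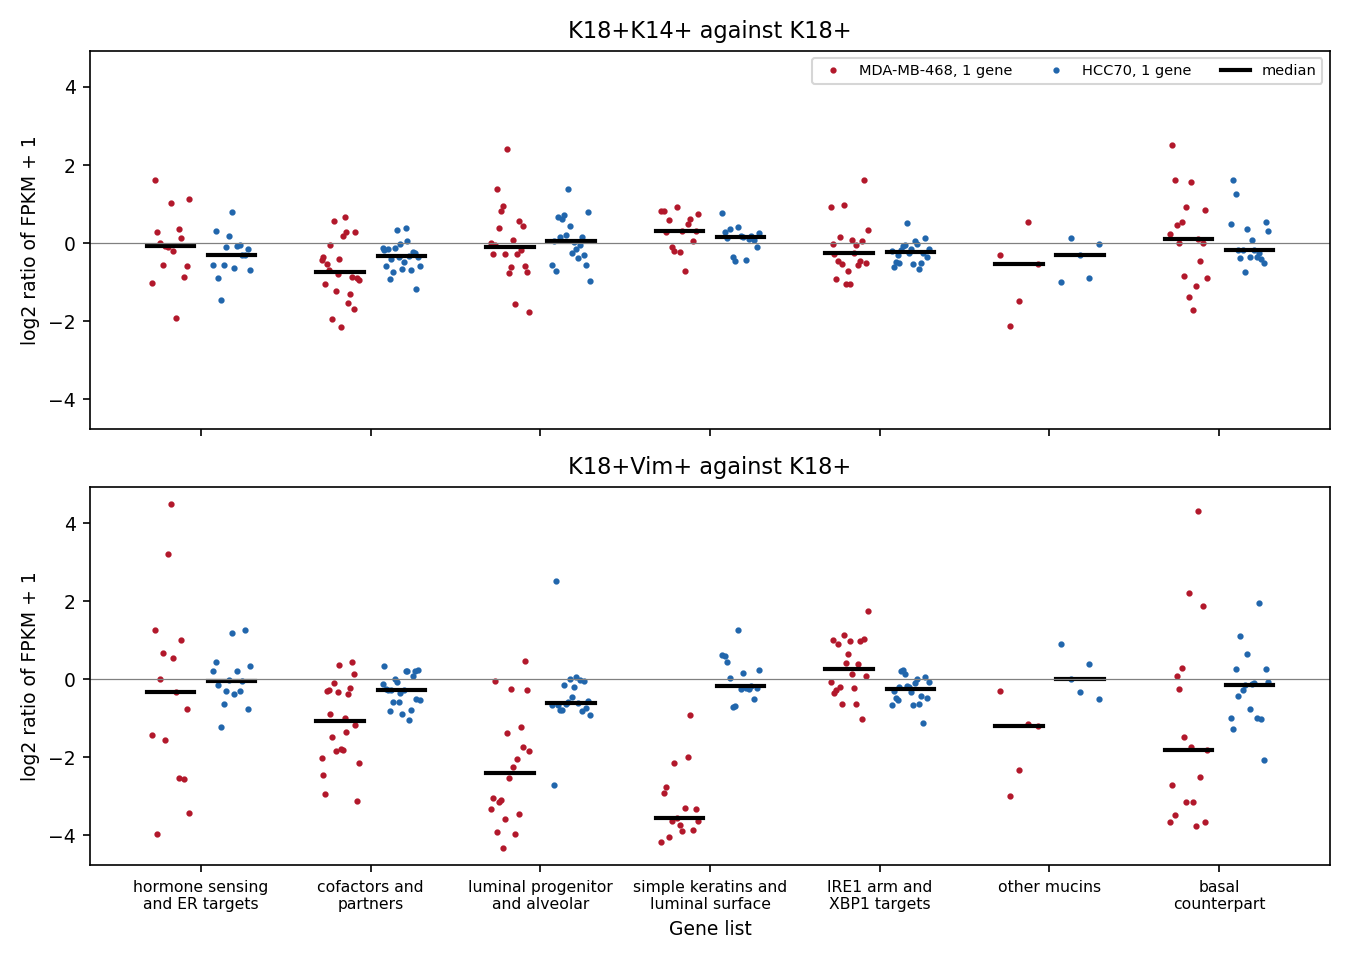
Log2 ratio of FPKM + 1 of each tested gene of 7 lists (dots) and its median (black bars) in MDA-MB-468 (red) and HCC70 (blue), for K18+K14+ against K18+ cells above and K18+Vim+ against K18+ cells below. Below, the MDA-MB-468 medians of simple keratins and luminal surface genes and of progenitor and alveolar genes lie at -3.56 and -2.39, beside HCC70 medians of -0.17 and -0.59. The median of basal genes also lies low there, at -1.81 in MDA-MB-468 as labelled and -0.15 in HCC70.

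Over the 6 libraries the genes whose log2(FPKM + 1) values followed each member most closely were MIOS (Pearson's r = 0.997) and ZNF565 (0.995) for FOXA1, MAP7D1 (0.998) and CFB (0.996) for GATA3, and CDKN1B (0.990) and CARF (0.975) for ESR1. For the other members they were LYRM1 (0.998) and TRIM66 (0.995) for KIT, S100A7A (0.999) and DAPL1 (0.998) for SPDEF, MEF2D (0.992) and TUBGCP3 (0.990) for XBP1, and CDC25B (0.997) and NUPR1 (0.997) for MUC1. NUPR1 was at 512, 29.5 and 161 FPKM in MDA-MB-468 libraries of K18+K14+, K18+Vim+ and K18+ cells and at 314 to 371 FPKM in HCC70. These are descriptions over 6 points that share a line or a population. For SPDEF 270 tested genes had r over 0.95, for ESR1 15, and for the others 80 to 193.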

How the data were processed

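RNA of 6 sorted, methanol-fixed libraries was recovered with the RecoverAll kit for fixed samples, per the labels' protocols, and aligned with TopHat2 to GRCh37, per the submitters' processing notes. Not given in the sources used here are the aligner's version, counting tool, annotation and lanes. Per the labels the HCC70 K18+ and K18+Vim+ libraries carry the same index. The authors deposited FPKM per Entrez Gene ID, in 18807 rows with values between 0.1 and 10000. Fixation can break RNA, which FPKM does not correct. No read counts or whole-read steps were seen, so the depth behind a value is unknown and intervals for counting error are left out. The median of the tested genes was 8.12 to 11.8 FPKM per library, and the top 100 genes held 22.5% to 36.3% of the FPKM sum.

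The 7 rows with blank cells were dropped, and of 5 IDs with a pair of rows the one with the higher mean was kept. Of the remaining 18795 IDs, 18732 matched a symbol in the RefSeq table (GRCh38.p14) and 63 did not. All 9 members had promoter windows in the table. Genes averaging 1 FPKM or more across all libraries entered as log2(FPKM + 1), which understates differences of low genes. They were fitted by limma 3.58.1 under R 4.3.3 (eBayes with trend). P-values were adjusted by Benjamini-Hochberg over all genes tested, at a threshold of 0.05. Populations were compared over 6 libraries with cell line as the replicate block, which pairs the samples by the labels (2 residual degrees of freedom). The lines were compared over 4 libraries with population as a term (1 residual degree of freedom). With 1 library left out, or with no replicate block, the lines were compared without that term. The fits were tested on simulated data with known changes, where the largest were recovered and most of the smallest were not called. Tables and figures were made with Python 3.11.15, pandas 2.3.3, numpy 2.4.6 and matplotlib 3.10.9.

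Members and gene lists were chosen with earlier results of these data known. Named are all members, the sort antigens, SMAD4, RB1 and EGFR, the 2 genes most correlated with each tested member, and, of each list and comparison, up to 4 genes of the same sign in both lines, or with libraries apart between the lines, that have the largest smaller ratio. Genes at 0.1 FPKM in all libraries, GATA2 and the mast cell genes were named after their values were seen. Alternatives were pseudocounts of 0.1 and 5, no filter or a mean of 5 FPKM, quantile normalization, limma without trend, no replicate block, 4 or all 6 libraries and leaving out each library in turn.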

Additional observations from a re-analysis of the deposited data

Results flagged for a closer look

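For 4 of the tested genes the lines moved in opposite directions, with 1 library per line and population behind each ratio, so that none of these differences was tested. GATA3 in K18+K14+ against K18+ cells had a log2 ratio of 0.55 in MDA-MB-468 and -0.13 in HCC70, a gap of 0.68 (MDA-MB-468 minus HCC70), and SPDEF had 0.50 and -0.07, a gap of 0.57. For both, the HCC70 ratio was above 0 after quantile normalization.

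In K18+Vim+ against K18+ cells, GATA3 had -1.15 in MDA-MB-468 and 0.47 in HCC70, a gap of -1.62. MUC1 had -3.71 and 0.28, a gap of -3.98. KIT had 1.24 and -0.01, a gap of 1.25, where the MDA-MB-468 K18+ value was the lowest of the table and the HCC70 ratio was above 0 after quantile normalization. These 3 rest on the K18+Vim+ library labelled MDA-MB-468, which went against its line in SMAD4, RB1 and EGFR, and the part of that conflict was not tested.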

How the results depend on the processing

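Of the 274 recomputed differences of the 7 tested members, 248 kept direction and side of the threshold, 14 no longer passed, 9 turned sign and 3 newly passed. Between populations no member had passed, and several settings leave the difference itself unchanged, so that the count of 248 says little of stability. The 14 that no longer passed were all SPDEF, KIT or FOXA1 between the lines, the only calls that could be lost. In K18+K14+ against K18+ cells no gene passed under any setting except without HCC70 K18+K14+, and the counts over single libraries left out ran from 0 to 1. In K18+Vim+ against K18+ cells they ran from 0 to 1500, the highest without HCC70 K18+Vim+, and every other setting gave 0. For the lines, 3366 genes passed, against 0 with no filter on low values (3774 at an unadjusted p under 0.05), 1444 with no replicate block, 1522 with all 6 libraries and 67 to 4143 with single libraries left out, fewest without HCC70 K18+ and, at 117 and 1288, without HCC70 K18+K14+ and MDA-MB-468 K18+K14+. The replicate block changed no call between populations, and without it FOXA1 no longer passed between the lines (adjusted p = 0.189). FOXA1 also missed at pseudocounts of 0.1 (adjusted p = 0.0548) and 5 (0.0502) and after quantile normalization (0.0563). The cause was not tested. Line fits with single libraries left out also lack the population term, so that their values mix both changes.

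With single libraries left out, the sign turned for some members. In K18+K14+ against K18+ cells the log2 difference ran from -0.54 to 0.95 for GATA3, -0.81 to 0.15 for KIT, -0.94 to 1.38 for SPDEF and -0.76 to 2.79 for MUC1. In K18+Vim+ against K18+ cells it ran from -1.32 to 0.64 for GATA3 and -4.10 to 0.67 for MUC1, and between the lines from -1.27 to 0.53 for MUC1. Depth is unknown, so that values near 0.1 FPKM limit what can be said of PGR, ELF5, ESR1 and KIT.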
